A study of Mus musculus with 6 samples.

Results

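The *Ccdc88* family and the Dishevelled genes were described across the ovary libraries of the series. All 6 members, *Ccdc88a*, *Ccdc88b*, *Ccdc88c*, *Dvl1*, *Dvl2* and *Dvl3*, were found by gene name among the 54532 genes of the deposited table. *Ccdc88c*, which codes for Daple, was selected on its lower values in every cKO library of these same data. Its difference between the groups is therefore given as a description, without a test. The paralogs and the Dishevelled genes were added by name.

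RNA came from whole ovaries of C57BL/6 mice at 16.5 days post-coitus (dpc), with 3 Ctrl and 3 cKO libraries. Ctrl mice are called wild type in the labels. The cKO mice were *Stra8-GFPCre Srsf1* Fl/Fl, in which Cre removes floxed exons of *Srsf1*, the gene of a splicing factor, in germ cells once they enter meiosis. Somatic cells of the ovary keep *Srsf1* in this model, and each library holds RNA of both kinds of cells. In whole tissue, fewer cells of a type and less RNA per cell cannot be told apart. The sources used here do not say how many animals gave RNA to a library, and p-values measure only the spread between these libraries.

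The CCDC88 proteins are long coiled-coil proteins whose amino end resembles that of the Hook adaptors, which link cargo to dynein. Daple binds Dishevelled through the end of its chain, and Daple and Girdin, the product of *Ccdc88a*, both carry a motif that activates G alpha subunits of the inhibitory class. Dishevelled proteins carry the signal of Frizzled receptors either towards beta-catenin or towards planar cell polarity, and Wnt signals through beta-catenin are known to act in the somatic cells of the fetal ovary. Gipie, the product of *Ccdc88b*, is best known from immune and endothelial cells.

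The end of the coding sequence sets Daple apart from its paralogs, so the last 30 coding bases of each *Ccdc88* gene are shown, read from the longest coding transcript of GENCODE M21 (GRCm38). Capitals mark the last 3 codons before the stop codon.
Ccdc88a: agcaggtctagggagcaaCAAAGCTCCtaa
Ccdc88b: cagttccttaccccttccCTCAGCCAGtga
Ccdc88c: acagtgtggtatgagtacGGCTGCGTGtga
The capitals of *Ccdc88c* code for the end that is known to bind the PDZ domain of Dishevelled, and neither paralog has them. Allowing for synonymous codons, 1 of the 13418 coding genes tested below, *Ccdc88c* itself, ended with these 3 residues, or 0.00745%.

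A second set is shown because the letters GGAGA, a purine-rich pentamer known from RNA bound by SRSF1, are dense in *Ccdc88c*. Each line is the 60-base stretch of coding sequence within 1 exon that holds the most copies, on the sense strand, with the pentamer in capitals. Copies of these letters cannot overlap each other.
Ccdc88a, chr11:29463325-29463384, plus strand: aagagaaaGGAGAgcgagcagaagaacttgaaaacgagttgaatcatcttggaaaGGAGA
Ccdc88b, chr19:6856174-6856233, minus strand: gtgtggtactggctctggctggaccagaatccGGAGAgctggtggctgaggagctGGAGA
Ccdc88c, chr12:100945653-100945712, minus strand: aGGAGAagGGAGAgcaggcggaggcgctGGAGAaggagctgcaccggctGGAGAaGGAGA
The stretch of *Ccdc88c* holds 5 copies, and those of *Ccdc88a* and *Ccdc88b* hold 2 each. These letters are a description of the transcripts, since binding was not measured in the files used here.

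Over whole transcripts, *Ccdc88c* held 53 copies in 6313 bases, or 8.4 per kilobase. That density lies at percentile 99.8 of the longest coding transcripts of 13418 genes, of which 96.9% hold the pentamer and whose median is 2.01 per kilobase. *Ccdc88b* came close with 6.86 per kilobase (percentile 99.3), and *Ccdc88a* had 1.71 (percentile 38.2). *Dvl1*, *Dvl2* and *Dvl3* held 2.68, 2.78 and 2.26 per kilobase, at percentiles 72.7, 75.1 and 59.3. Of the 6313 bases of *Ccdc88c*, 6048 are coding, and they hold all 53 copies. Within the coding sequence alone *Ccdc88c* had 8.76 per kilobase and *Ccdc88b* 6.97, at percentiles 98.8 and 96.7. The median there was 2.47 per kilobase. Whether the density bears on the levels was not tested.

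**Figure D1:**
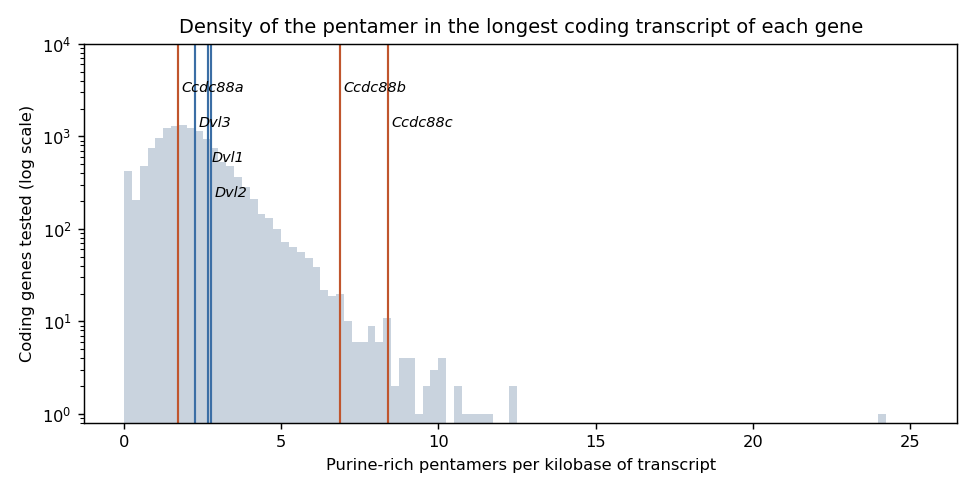
Histogram of the density of the purine-rich pentamer, in copies per kilobase on the x axis, over the longest coding transcripts of 13418 tested genes, with the number of genes on a log scale on the y axis. Orange lines mark the *Ccdc88* genes and blue lines the Dishevelled genes, and *Ccdc88b* (6.86) and *Ccdc88c* (8.4) lie in the right tail.

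The values are FPKM, in which reads are scaled to gene length and to a library size. The library size implied by the values was 0.9645 of the reads on genes in Ctrl 1 and 1.043 in Ctrl 3. It is thus not the reads on genes alone, and the sources used here do not explain it. Because of the length scaling, comparisons between genes depend on the gene length used. It was 11386 bases for *Ccdc88c*, 10891 for *Ccdc88a* and 4959 for *Ccdc88b*. Their longest coding transcripts have 6313, 9376 and 4959 bases. Multiplied by gene length, 100% of the values gave whole reads within 0.05 of a read. The reads on genes numbered between 14212164 and 16784241 per library. *Srsf1* had 63.1 to 80.2 FPKM in Ctrl and 32.4 to 37.0 in cKO, with no overlap. The protocol text of the labels names retina while their tissue field names ovary. Of 7 retina markers, *Crx* was at 0 in every library and 5 others stayed under 0.5 FPKM throughout. *Foxl2* of pregranulosa cells had 47.5 to 74.6 FPKM, and *Ddx4* of germ cells 13.1 to 55.1.

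Groups were compared with limma, two-sided, on log2(FPKM + 1). The test covered 17180 genes whose mean reached 0.5 FPKM, and a fold change on this scale understates that of low genes. An unadjusted p below 0.05, the limit of the study, was reached by 761 of the 17180 genes (4.43%), with 460 higher in cKO (2.68%) and 301 lower (1.75%). After Benjamini-Hochberg adjustment none passed 0.05 in limma, where the smallest adjusted p was 0.392, nor with voom on the reads, where it was 0.563.

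*Ccdc88c* (ENSMUSG00000021182) spans bases 100911523 to 101029056 of chromosome 12 (GRCm38, minus strand), with 30 exons and 2016 codons in its longest coding transcript. Its level was 2.93, 3.43 and 3.20 FPKM in Ctrl 1, 2 and 3 and 1.41, 1.65 and 1.34 FPKM in cKO 1, 2 and 3. The 3 cKO libraries lie below the lowest Ctrl library, as the selection requires. The values rest on 500, 633 and 637 reads in Ctrl and on 249, 316 and 217 reads in cKO. The group means were 3.19 ± 0.253 FPKM in Ctrl and 1.47 ± 0.163 in cKO (SD, n = 3 each), a ratio of 0.461 and a log2 fold change of -0.76. This is the difference on which the gene was selected, and of all 17180 genes tested, 1492 (8.68%) had groups that did not overlap, 704 of them with cKO lower (4.10%). The ratio of the reads, 1770 in Ctrl to 782 in cKO, scaled for library size, was 0.463. No interval is given for it, because the gene was selected on this difference. On voom's scale, where reads are not damped by a pseudocount of 1, the log2 fold change was -1.14.

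The other *Ccdc88* genes did not share this pattern. *Ccdc88a*, the gene of Girdin, an actin-binding substrate of Akt (ENSMUSG00000032740, chromosome 11, 29373658 to 29510808, plus strand), had 7.0, 8.31 and 9.60 FPKM in Ctrl 1, 2 and 3. In cKO 1, 2 and 3 it had 11.2, 6.24 and 12.3 FPKM. The cKO libraries held both the lowest and the highest values of the 6, and the groups overlap. Its log2 fold change was 0.19 with a standard error of 0.25 (limma p = 0.473, adjusted p = 0.982, exact permutation p = 0.6). With 3 libraries against 3, that exact test cannot go below p = 0.1. *Ccdc88a* depended on 1 library: without cKO 2 its log2 fold change was 0.46 and it passed the unadjusted limit in limma, but not after adjustment (adjusted p = 0.296). In that fit 14.5% of all genes tested passed the unadjusted limit.

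*Ccdc88b*, the gene of Gipie (ENSMUSG00000047810, chromosome 19, 6844623 to 6858211, minus strand), was the lowest member. It had 0.390, 0.311 and 0.427 FPKM in Ctrl and 0.183, 0.541 and 0.369 FPKM in cKO. Again cKO held the lowest and the highest value. These are 29, 25 and 37 reads in Ctrl and 14, 45 and 26 reads in cKO. The mean of 0.370 FPKM lies under the minimum, so *Ccdc88b* was the 1 member that was not tested with the others. In a fit without the minimum its log2 fold change was -0.02 (limma p = 0.874, adjusted p = 0.984), and the exact permutation p was 0.8. The ratio of reads was 0.979, with an interval of 0.719 to 1.33 from counting error alone, the widest among the members.

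Among the Dishevelled genes, *Dvl1* (ENSMUSG00000029071, chromosome 4, 155847402 to 155859303, plus strand) had 16.1, 23.5 and 21.7 FPKM in Ctrl. In cKO it had 23.3, 18 and 17.1 FPKM. The lowest library is Ctrl 1 and the other values are interleaved. The log2 fold change was -0.06 with a standard error of 0.19 (limma p = 0.748, adjusted p = 0.989, exact permutation p = 0.9). *Dvl2* (ENSMUSG00000020888, chromosome 11, 70000595 to 70012301, plus strand) had 10.6, 10.2 and 9.74 FPKM in Ctrl and 8.95, 12.5 and 10.2 in cKO. The cKO libraries enclose the whole Ctrl range. The log2 fold change was 0.04 with a standard error of 0.14 (limma p = 0.811, adjusted p = 0.992, exact permutation p = 0.9).

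*Dvl3* (ENSMUSG00000003233, chromosome 16, 20516982 to 20534010, plus strand) had 14.9, 13.6 and 12.6 FPKM in Ctrl. In cKO it had 10.8, 14.0 and 12.2 FPKM. The lowest 2 values are cKO 1 and cKO 3, and cKO 2 lies inside the Ctrl range. The log2 fold change was -0.15 with a standard error of 0.13 (limma p = 0.314, adjusted p = 0.978, exact permutation p = 0.3). None of the 4 tested members other than *Ccdc88c* passed the unadjusted limit, which 4.43% of all genes tested reached. Whether counting used strand is not stated in the sources at hand. *Dvl2* overlaps *Acadvl* on the opposite strand, a gene with a mean of 15.0 FPKM, so its reads are uncertain there. The opposite-strand partners of *Dvl1* and *Dvl3* had means of 0.312 and 0.520 FPKM, and those of *Ccdc88c* held 9 reads and 1 read over all libraries.

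**Figure D2:**
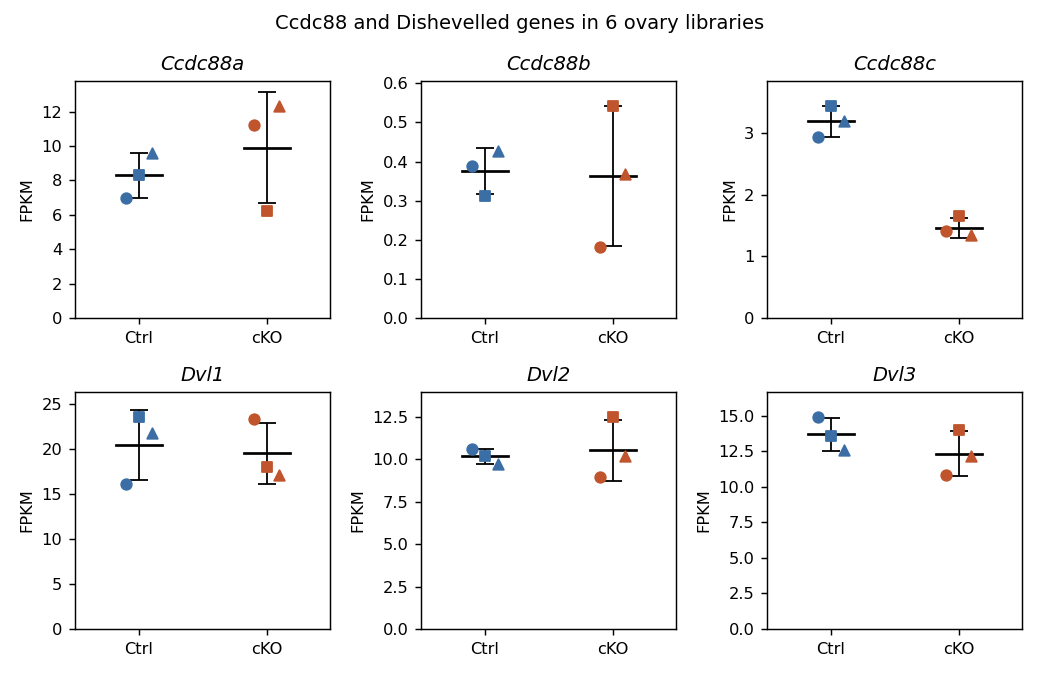
FPKM on the y axis of each member in the 3 Ctrl (blue) and 3 cKO (orange) libraries, with circles, squares and triangles for replicates 1, 2 and 3, a bar at the mean and whiskers of 1 SD. *Ccdc88c* is the member whose groups do not overlap (2.93 to 3.43 against 1.34 to 1.65 FPKM).

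By mean FPKM over the 6 libraries, the members order as *Dvl1* (20.0), *Dvl3* (13.0), *Dvl2* (10.4), *Ccdc88a* (9.10), *Ccdc88c* (2.33) and *Ccdc88b* (0.370). *Dvl1* lay above *Dvl3* and *Dvl3* above *Dvl2* in each of the 6 libraries. *Dvl2* and *Ccdc88a* are neighbours whose order is not kept, since *Ccdc88a* was the higher of the pair in cKO 1 and cKO 3. *Ccdc88c* stood above *Ccdc88b* and below *Ccdc88a* in every library. Among all genes tested, *Dvl1* lay at percentile 82.2 of mean level and *Ccdc88c* at percentile 29.1.

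The make-up of the *Ccdc88* family moved with *Ccdc88c*. Its share of the summed FPKM of the 3 family genes was 28.4%, 28.5% and 24.2% in Ctrl and 11.1%, 19.6% and 9.57% in cKO, with means of 27 ± 2.44% and 13.4 ± 5.41% (SD, n = 3 each). Because this share contains *Ccdc88c*, it carries the selection too and is not tested. The summed FPKM of the family was 10.3, 12.1 and 13.2 in Ctrl and 12.8, 8.43 and 14.0 in cKO, so the groups overlap in the sum. The ratio of *Ccdc88a* to *Ccdc88c*, in FPKM, which carries the selection as well, was 2.39, 2.42 and 3.00 in Ctrl and 7.89, 3.77 and 9.17 in cKO. Of the cKO libraries, cKO 2 is nearest to Ctrl in this ratio, being lowest in *Ccdc88a* and highest in *Ccdc88c*.

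The summed FPKM of the Dishevelled genes overlapped between the groups, with 41.5, 47.4 and 44.1 FPKM in Ctrl and 43.1, 44.5 and 39.5 FPKM in cKO. *Dvl1* made up 38.7% to 49.7% of it in Ctrl and 40.5% to 54.1% in cKO. *Dvl2* made up 21.6% to 25.5% and 20.8% to 28.1%, and *Dvl3* 28.6% to 35.8% and 25.1% to 31.4%. All 3 shares overlap between the groups. *Dvl3* over *Ccdc88c*, in FPKM, was 5.07, 3.97 and 3.94 in Ctrl and 7.64, 8.45 and 9.08 in cKO. *Dvl1* over *Ccdc88c* was 5.5 to 6.86 in Ctrl and 10.9 to 16.5 in cKO, and *Dvl2* over *Ccdc88c* 2.98 to 3.62 and 6.33 to 7.6. These ratios have *Ccdc88c* as denominator, so they carry its selection and are no result about the Dishevelled genes.

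**Figure D3:**
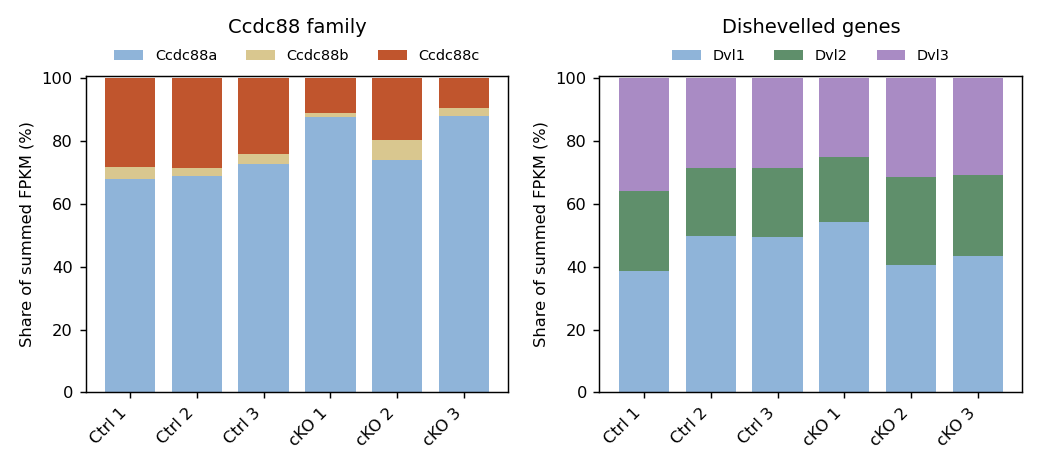
Share of summed FPKM, in percent on the y axis, that each gene takes of the *Ccdc88* family (left) and of the Dishevelled genes (right) in each of the 6 libraries on the x axis. *Ccdc88c* takes 24.2% to 28.5% in Ctrl and 9.57% to 19.6% in cKO, while the shares of the Dishevelled genes overlap between the groups.

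The germ cell markers varied widely between libraries. Their level is given because *Srsf1* was deleted in germ cells. The summed FPKM of 7 germ cell markers was 112, 221 and 409 in Ctrl and 469, 196 and 533 in cKO. *Dazl* and *Dppa3* of these markers were higher in cKO at the unadjusted limit, as were 2.68% of all genes tested. Neither passed after adjustment (limma adjusted p = 0.978 for both). The groups of *Dazl* overlap, and *Dppa3* rests on 2 to 24 reads per library in Ctrl and 25 to 102 in cKO. Of the 7 markers, 6 had a log2 fold change above 0, and the list's median was 0.47. *Ccdc88a* was higher where the summed FPKM of the markers was higher, with the lowest pair, Ctrl 1 and cKO 2, as the exception. *Dvl3* ran nearly the other way, from 14.9 FPKM at the lowest sum to 10.8 and 12.2 at the highest sums. Which libraries are highest depends on the marker. *Dazl* had 80.0 FPKM in Ctrl 3, 169 in cKO 1 and 219 in cKO 3, but *Mael* (69.0 FPKM) and *Figla* (13.9 FPKM) were highest in Ctrl 3. The paper also lists *Dazl* among its changed splicing events. *Ccdc88c* did not follow the sum within Ctrl, where it was 2.93, 3.43 and 3.20 FPKM while the sum rose from 112 to 409. Within cKO it fell as the sum rose, with 1.65, 1.41 and 1.34 FPKM at sums of 196, 469 and 533. A fit that adds the germ cell marker level as a term was chosen after the values had been seen. Its log2 fold changes were -0.10 for *Ccdc88a*, -0.04 for *Dvl3*, -0.18 for *Dvl1* and 0.14 for *Dvl2*. In the main fit *Dvl1* and *Dvl2* had -0.06 and 0.04, so this term did not bring all members nearer to no difference. *Ccdc88c* had -0.75 with the term.

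**Figure D4:**
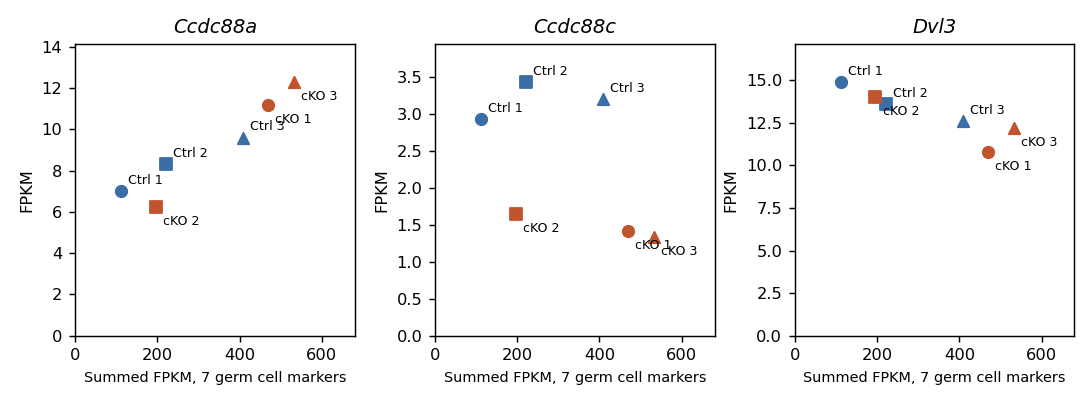
FPKM of *Ccdc88a*, *Ccdc88c* and *Dvl3* on the y axes against the summed FPKM of 7 germ cell markers on the x axes, 1 point per library, Ctrl in blue and cKO in orange. *Ccdc88a* runs from 6.24 to 12.3 FPKM and *Dvl3* from 10.8 to 14.9, while *Ccdc88c* was selected on its gap between the groups (2.93 to 3.43 against 1.34 to 1.65 FPKM).

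Markers of pregranulosa cells, stroma and endothelium were steadier. The sums for pregranulosa cells were 423 to 549 FPKM in Ctrl and 427 to 609 in cKO, those for stroma 510 to 607 and 492 to 566, and those for endothelium 61.5 to 75.2 and 60.5 to 71.2. None of the 19 markers on these 3 lists passed the unadjusted limit. Immune markers summed to 14.4 to 18.2 FPKM in Ctrl and 10.5 to 14.6 in cKO, with 4 of the 7 listed under 0.5 FPKM in every library, including *Ptprc*. Mesonephros markers summed to 44.9 to 56.6 and 43.6 to 64.8 FPKM. Red blood cell markers varied most, from 4850 to 23000 FPKM in Ctrl and from 1600 to 10400 in cKO, in which cKO 2 and cKO 3, at 10400 and 9800, lay between Ctrl 2 and Ctrl 1, at 7790 and 23000. Over their tested genes, the median log2 fold change was 0.06 for pregranulosa cells, -0.02 for stroma and -0.01 for endothelium. It was -0.29 for immune cells, -0.28 for mesonephros and -0.85 for red blood cells. *Nr2f2* of stroma was higher and *Adgre1* of immune cells lower in all cKO libraries, without passing the unadjusted limit. The part of any cell type in the values of *Ccdc88c* was not tested.

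To place the members in their pathway, 93 other genes in 8 lists were examined, of which 90 were tested. *Csnk2b* and *Plcd4* were higher and *Vangl1* was lower in cKO at the unadjusted limit. This is 3.33% of the 90, against 4.43% of all genes tested. Single libraries moved the count, which was 13 without cKO 2, where 14.5% of all genes passed. It was 1 without Ctrl 1 (3.64% of all genes), 0 without Ctrl 2 (2.12%), 0 without cKO 1 (2.57%) and 2 without cKO 3 (2.47%). The median log2 fold change over the lists was 0.01, against -0.01 over all genes, and 49 of the 90 lay above 0. Groups did not overlap for 7 of them (7.78%), against 8.68% of all genes. None of the 90 passed after adjustment over all genes.

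Of the 16 receptors upstream of Dishevelled, 15 were tested, none passed, and the median log2 fold change was -0.07. *Ptk7*, a co-receptor of planar cell polarity, was the highest at 46.2 to 51.0 FPKM in Ctrl and 44.2 to 61.2 in cKO. *Fzd6*, a Frizzled receptor of the polarity branch, had the largest log2 fold change of the list. It had 4.03, 3.82 and 4.48 FPKM in Ctrl and 2.64, 3.44 and 3.64 in cKO, so all cKO libraries lie below Ctrl, with a log2 fold change of -0.27 (limma p = 0.101, adjusted p = 0.978, exact permutation p = 0.1). *Fzd3* and *Fzd7*, also Frizzled receptors, lay above Ctrl in all cKO libraries. *Fzd3* had 5.49, 4.81 and 4.78 FPKM in Ctrl and 6.16, 5.56 and 6.38 in cKO, and *Fzd7* had 11.0, 12.1 and 13.2 in Ctrl and 13.3, 14.1 and 16.0 in cKO. Their log2 fold changes were 0.22 and 0.24, and neither passed the limit.

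The planar cell polarity core had 12 of 13 genes tested, 1 of them lower in cKO and a median of 0.02. *Vangl1*, a membrane protein of the core that binds Dishevelled, had 6.35, 4.70 and 3.84 FPKM in Ctrl and 3.00, 3.03 and 3.81 in cKO. The gap between Ctrl 3 and cKO 3 is small, although the groups do not overlap. The log2 fold change was -0.46 with a standard error of 0.19 (limma p = 0.0427, adjusted p = 0.978, exact permutation p = 0.1). The call was lost without Ctrl 1, Ctrl 2, cKO 1 or cKO 2, with log2 fold changes of -0.60 to -0.30 over the 6 omissions. Its paralog *Vangl2* had means of 6.01 and 6.13 FPKM. *Celsr2*, the other gene of the list whose groups did not overlap, had 1.48, 1.93 and 1.66 FPKM in Ctrl and 1.02, 1.45 and 0.948 in cKO. Its log2 fold change was -0.33 (limma p = 0.074, adjusted p = 0.978, exact permutation p = 0.1). It passed the unadjusted limit with voom and without cKO 2, where 14.5% of all genes passed. *Scrib*, a scaffold and the highest gene of the list, had 13.6 to 15.3 FPKM in Ctrl and 13.3 to 17.3 in cKO.

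The list of Dishevelled kinases, DIX proteins and inhibitors had 16 tested genes, 1 of them higher in cKO and a median of -0.01. *Csnk2b*, the regulatory subunit of casein kinase 2, had 51.4, 44.3 and 48.0 FPKM in Ctrl and 68.5, 56.7 and 55.4 in cKO. All cKO libraries lie above Ctrl. The log2 fold change was 0.32 with a standard error of 0.13 (limma p = 0.0468, adjusted p = 0.978, exact permutation p = 0.1), and the call was lost without Ctrl 1, Ctrl 2, Ctrl 3 or cKO 1. The catalytic subunits *Csnk2a1* and *Csnk2a2* had log2 fold changes of 0.02 and 0.01. *Csnk2b* overlaps *Gpank1* on the opposite strand, which had a mean of 9.20 FPKM. *Cyld*, a deubiquitinase of Dishevelled, had the largest log2 fold change of the list, 0.73, but missed the limit. This value was 0.55 to 1.07 with 1 library left out, the lowest without cKO 1 and the highest without cKO 2, and 0.36 with the germ cell term. It had 4.21, 5.22 and 6.69 FPKM in Ctrl and 12.4, 5.51 and 12.1 in cKO, where cKO 2 lies inside the Ctrl range as it does for the germ cell sum. *Csnk1d*, a kinase of Dishevelled, had means of 49.4 and 47.4 FPKM.

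**Figure D5:**
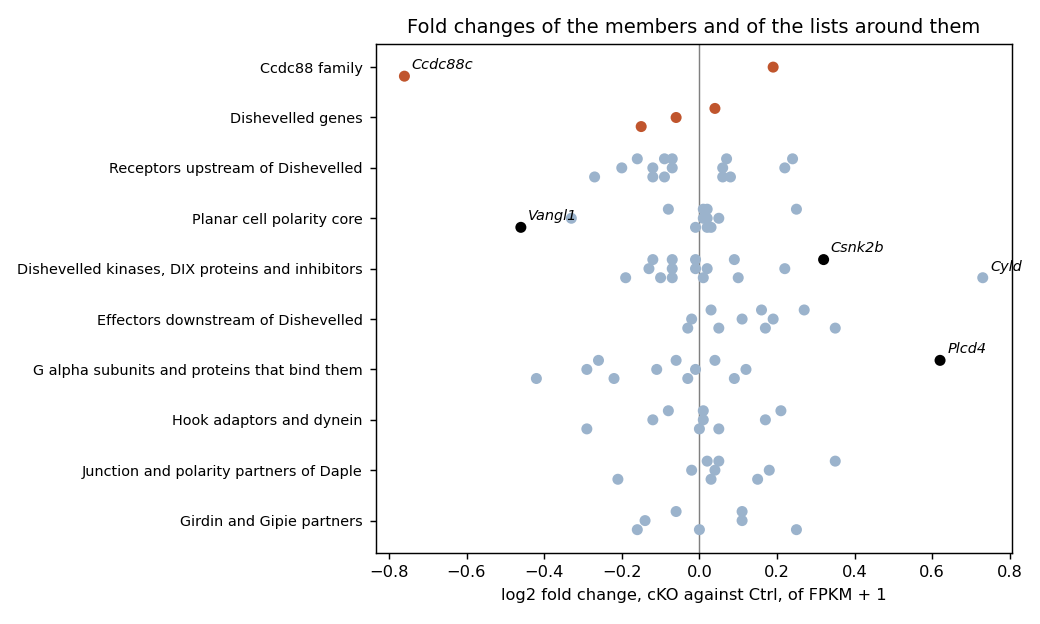
Log2 fold change of FPKM + 1, cKO against Ctrl, on the x axis for each tested member (orange) and each tested gene of the 8 pathway lists, with 1 row per list. Genes past the unadjusted limit are black (*Vangl1* -0.46, *Csnk2b* 0.32, *Plcd4* 0.62), *Cyld* at 0.73 missed it, and *Ccdc88c* at -0.76 was selected on this difference.

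Of 11 effectors downstream of Dishevelled, 10 were tested, none passed, 8 lay above 0 and the median was 0.14. *Cdc42*, a small GTPase of cell polarity, had 168, 144 and 160 FPKM in Ctrl and 177, 167 and 194 in cKO (log2 fold change 0.19). *Rock2*, a kinase acting on myosin, had 10.7, 11.3 and 11.3 FPKM in Ctrl and 18.2, 10.9 and 15.1 in cKO, with a log2 fold change of 0.35, or 0.54 and past the unadjusted limit without cKO 2. Here again cKO 2 stood with Ctrl. *Ctnnb1*, the gene of beta-catenin, had means of 142 and 148 FPKM.

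The G alpha subunits and proteins that bind them gave 12 tested genes, 1 of them higher in cKO and a median of -0.05. *Gnai2*, an inhibitory G alpha subunit and the highest of the list, had 77.6 to 103 FPKM in Ctrl and 70.7 to 103 in cKO. *Gnai3* had means of 79.7 and 84.8 FPKM. These are RNA levels of whole ovaries, and protein was not measured here. *Plcd4*, a phospholipase C, had 0.0663, 0.210 and 0.284 FPKM in Ctrl and 1.16, 0.372 and 1.03 in cKO. These are 7, 24 and 35 reads in Ctrl and 126, 44 and 103 in cKO, again with cKO 2 nearest to Ctrl. The log2 fold change was 0.62 with a standard error of 0.22 (limma p = 0.0273, adjusted p = 0.978, exact permutation p = 0.1). Without Ctrl 1, Ctrl 2, cKO 1 or cKO 3 the call was lost, and with the germ cell term it was 0.42 and no longer past the limit. *Plcd4* overlaps *Usp37* and *Zfp142* on the opposite strand, which had means of 9.0 and 4.03 FPKM, so its few reads are uncertain.

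The Hook adaptors and dynein subunits, which the CCDC88 proteins resemble or recruit, had 9 tested genes, none past the limit and a median of 0.01. *Dync1h1*, the dynein heavy chain, had 23.3, 34.1 and 26.2 FPKM in Ctrl and 36.1, 22.1 and 25.8 in cKO. *Hook2* had 4.55 to 5.23 FPKM in Ctrl and 2.69 to 5.2 in cKO, with a log2 fold change of -0.29, the largest of the list. It was -0.48 and past the unadjusted limit without cKO 2, and -0.10 both without cKO 3 and with the germ cell term. The junction and polarity partners of Daple had 9 tested genes, none past the limit and a median of 0.04. *Cgn*, the gene of cingulin at tight junctions, had 29.4 to 42.0 FPKM in Ctrl and 26.5 to 47.5 in cKO. *Mpdz*, a PDZ scaffold that binds Daple, had 8.96, 9.87 and 9.48 FPKM in Ctrl and 10.6, 9.19 and 8.98 in cKO. *Prkcz*, an atypical protein kinase C, had the largest log2 fold change of that list, 0.35, which was 0.13 without Ctrl 1 and 0.16 with the germ cell term.

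The partners of Girdin and Gipie had 7 tested genes, none past the limit and a median of 0.00. *Hspa5*, the chaperone that Gipie binds, had 161, 188 and 235 FPKM in Ctrl and 234, 159 and 191 in cKO. These values overlap, and the list held no gene whose groups were apart.

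The nearest 2 tested genes on each side of *Ccdc88c* on chromosome 12 had groups that overlap. On the side of lower coordinates, *Dglucy*, 14542 bases away, had 1.41, 1.46 and 1.27 FPKM in Ctrl and 0.998, 1.87 and 0.858 in cKO, with a log2 fold change of -0.11. On the other side *Ppp4r3a*, a regulatory subunit of protein phosphatase 4 that lies 10353 bases away, had 10.5, 8.61 and 9.52 FPKM in Ctrl and 10.7, 9.72 and 14.6 in cKO, with a log2 fold change of 0.25. *Gm2614* further out had a log2 fold change of 0.03, and *Gm47639*, with 0 to 8 reads per library, had -0.50. None of these 4 neighbours passed the unadjusted limit in limma, although *Gm47639* did with the replicate block (-0.50) and with the germ cell term (-0.78), on its few reads.

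The genes closest to *Ccdc88c* in profile were found by the root mean square difference of centred log2(FPKM + 1) over the 6 libraries. *Fibin*, which codes for a secreted protein, was the closest, with a difference of 0.125. It had 2.68, 2.89 and 2.40 FPKM in Ctrl and 1.14, 1.42 and 1.52 in cKO, on 91, 106 and 95 reads against 40, 54 and 49. Its level too is lower in all cKO libraries, as the choice by likeness requires. The next were the noncoding *Gm45091* (0.139), *AC166164.1* (0.146), *Gm36899* (0.146) and *Gm10941* (0.147), with 1 to 30 reads per library and large counting error. The difference to *Ccdc88c* was 0.332 for *Dvl3*, 0.396 for *Dvl1* and 0.415 for *Dvl2*, below the median of 0.434 over all genes tested, and 0.586 for *Ccdc88a*, above it. A gene that varies little between libraries also gets a low value here, so a value below the median is not a shared pattern. *Dvl3*, *Dvl1* and *Dvl2* had log2 fold changes of -0.15, -0.06 and 0.04.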

How the data were processed

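The sources for groups were the sample labels, which give 3 Ctrl and 3 cKO libraries of ovaries at 16.5 dpc, and the study's methods, which describe biological replicates. The authors aligned reads to GRCm38 with HISAT2 2.0.5, counted reads with featureCounts, scaled the counts and deposited them as FPKM. The sources used here name no annotation release, but the coordinates of all 6 members equal those of GENCODE M21.

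limma 3.58.1 in R 4.3.3 was run on log2(FPKM + 1) with a minimum mean FPKM of 0.5, an intensity trend and group as the only term. Exact permutation tests were two-sided. Whole reads were recovered from FPKM and gene length for voom and for exact intervals at 95%. Tables and figures were made in Python 3.11.15 (pandas 2.3.3, numpy 2.4.6, matplotlib 3.10.9, scipy 1.17.1). The fit was tested on simulated data. Between 14212164 and 16784241 reads lie behind each library, and *Ccdc88b*, with the fewest reads, carries the largest counting error among the members.

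The members, lists, tests and alternatives were chosen with earlier results of these data known. Named genes are the 6 members, *Srsf1*, pathway genes past the limit, the highest and the most changed gene of each pathway list, the 5 closest profiles, the nearest 2 tested genes on each side of *Ccdc88c*, and markers under discussion. *Vangl2*, *Celsr2*, *Csnk2a1*, *Csnk2a2*, *Csnk1d*, *Ctnnb1*, *Gnai3*, *Mpdz*, *Fzd3* and *Fzd7* were named after their values were seen. Alternatives were other pseudocounts (0.1, 0.5), minimums (none, 1), scalings and models, protein-coding genes alone, each library left out and, added later, a germ cell term. Median-ratio factors lay between 0.9926 and 1.005, so that scaling changed the deposited values little. Values of some single genes under the naming rule are not reported here. Splicing was not analysed here.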

Additional observations from a re-analysis of the deposited data

How the results depend on the processing

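With 3 libraries a group, low genes such as *Ccdc88b* and *Plcd4* are limited by depth. For *Ccdc88c* the log2 fold change was -1.07 at a pseudocount of 0.1, -0.91 at 0.5 and -1.14 with voom, and -0.81 to -0.72 with 1 library left out. The other members past the limit numbered 0 to 1 with 1 library left out, and the pathway genes 0 to 13: 13 without cKO 2 (14.5% of all genes passed there), 1 without Ctrl 1, 0 without Ctrl 2 or without cKO 1, and 2 without cKO 3. The sources used here do not say whether replicate numbers pair the libraries. Correlations of deviations (-0.389, -0.0297 and 0.117) cannot settle this with so few libraries. With the replicate block *Ccdc88c* had -0.76 and 2 pathway genes passed. *Csnk2b* lost its call under quantile normalization, voom, no trend, the block and the germ cell term, *Vangl1* with no minimum, under quantile normalization, the block and the germ cell term. *Cyld* passed with a minimum of 1, either scaling, voom, the block, coding genes alone and without Ctrl 3 or cKO 2. Signs turned for *Dync1h1* with median-ratio scaling (0.01), for *Hspa5* (-0.02) and *Scrib* (-0.004) with voom, and with the germ cell term for *Ccdc88a* (-0.10), *Gnai2* (0.13), *Hspa5* (-0.22) and *Dglucy* (0.04). With 1 library left out they turned for *Dvl1* (-0.22 to 0.04), *Dvl2* (-0.08 to 0.14), *Cgn* (-0.20 to 0.21), *Dync1h1* (-0.19 to 0.15), *Gnai2* (-0.21 to 0.06), *Hspa5* (-0.14 to 0.14), *Ptk7* (-0.08 to 0.15), *Scrib* (-0.10 to 0.07), *Gm2614* (-0.07 to 0.19) and *Dglucy* (-0.30 to 0.01). None of these genes had passed the limit. The causes were not tested. Of the single-gene values of tested genes under alternatives, 341 kept direction and side of the limit, 28 changed sign, 22 lost and 13 gained a call, and the median of all genes moved by less than 0.1 under every setting.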
